A study of Mus musculus and Homo sapiens with 10 samples.

Results

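CTCF intervals wider than 20 kb in HEK293T cells were chosen by their width alone: every interval of the deposited CTCF list with end minus start over 20000 bp. Of 10912 intervals, 305 met it (2.8%). The series compared DamID read on Nanopore and Illumina instruments in 10 samples. The intervals belong to its human arm of 3 samples in HEK293T, an established line derived from human embryonic kidney. In that arm, 2 samples expressed CTCF-DamN126A, CTCF fused to a mutant form of the bacterial adenine methyltransferase Dam, and 1 expressed DamN126A alone. Expression was induced with 2 µg/mL doxycycline, and 2.5 µg of genomic DNA per library was cut with DpnI, per the labels' protocols. The sources used here do not say how DamN126A alone entered the calls, or whether both CTCF samples did. The list held coordinates only. It gave no value per sample and no height, so depth was unknown, no spread between replicates could be computed, and no difference below was tested.

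CTCF is a zinc finger protein that binds a short DNA motif, halts the cohesin ring as it extrudes chromatin loops and so marks many loop anchors and borders of topological domains. Dam methylates adenine within GATC, and a Dam fusion marks such sites around the place where its partner is bound. DpnI cuts only methylated GATC, so an interval shows a stretch of marked sites and not the motif itself. The labels' protocols add a column step for fragments under 10 kb, and every wide interval was therefore longer than 2 such fragments. Human sequence and annotation were not used here, so motifs, GATC sites, genes and segmental repeats were not analysed and no sequence is printed. Positions are in hg38, the human build named in the submitters' processing notes.

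The 305 wide intervals covered 11.1 Mb, which was 17.04% of the 65.2 Mb in all intervals. Their median width was 24.8 kb, with quartiles of 22.2 and 30.9 kb, against a median of 3.918 kb for the 10607 narrower intervals. These widths describe the rule and are no finding. Of the wide intervals, 220 were at most 30 kb, 49 were over 30 and up to 40 kb, 20 were over 40 and up to 50 kb, and 14 were over 50 and up to 100 kb. The other 2 were over 100 kb. Widths ran through the threshold without a break. The narrowest member, on chromosome 9 (chr9:5591822-5611822), measured 20001 bp, and the widest interval left out, on chromosome 5 (chr5:140345855-140365847), measured 19993 bp.

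**Figure D1:**
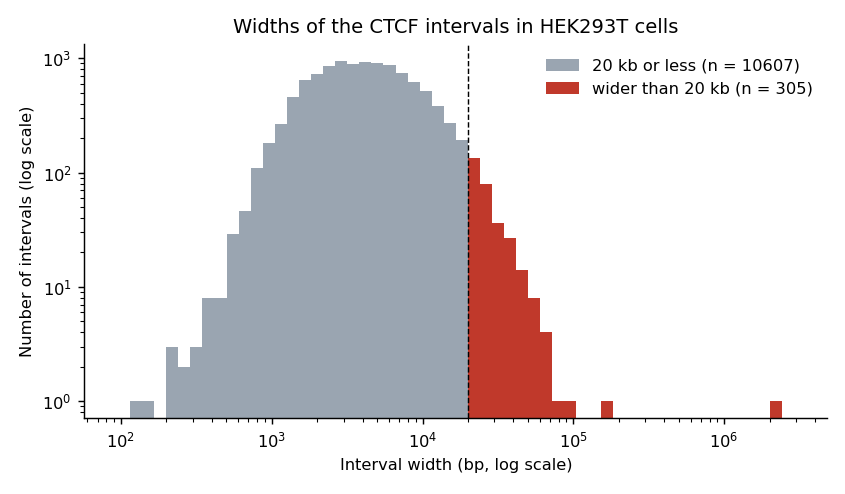
Number of intervals by width, both axes on log scales, with intervals of 20 kb or less in grey and wider ones in red. The dashed line marks 20 kb; the distribution passes through it without a break, and 2 intervals stand over 100 kb, the widest at 2304 kb.

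The widest interval lay on chromosome 5 and spanned 2304 kb (chr5:47306456-49610617). With it left out of both the wide intervals and the total, the wide intervals held 14.0% of the remaining interval bases, in place of 17.04%. The nearest intervals were 2767 kb before it and 1136 kb after it, so no other interval lay within 1 Mb. By general knowledge of the hg38 maps, this stretch belongs to the centromere region of chromosome 5, where the reference holds modelled arrays of satellite repeats. Whether repeats or the mapping of reads to them set this width was not tested.

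The second widest, 169.6 kb on chromosome 16 (chr16:34411570-34581145), stood at the edge of a stretch of 12.2 Mb without any interval, which takes in the centromere of that chromosome. A single narrower interval lay 828 bp after it, between it and that stretch, and the nearest interval before it was 2711 kb away. A member on chromosome 20 (chr20:28836209-28860321) measured 24.1 kb and also falls in the centromere region by general knowledge. It had no interval within 2648 kb. These 3 members thus sat by centromeres, each with a stretch of over 1 Mb without intervals on at least 1 side.

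Further very wide intervals lay in sparse surroundings on chromosomes 3 and 8. On chromosome 3, intervals of 92.5 kb (chr3:76696379-76788895), 54.0 kb (chr3:77032895-77086895) and 54.5 kb (chr3:78975350-79029820) each had 1 other interval within 1 Mb and none within 100 kb. The first pair were neighbours in the list, 244.0 kb apart. On chromosome 8, intervals of 73.4 kb (chr8:12214633-12288000) and 49.3 kb (chr8:11695931-11745235) each had 5 others within 1 Mb and none within 100 kb. This part of the short arm of chromosome 8 is known for large segmental repeats, and their place in these intervals was not tested. A 61.9 kb interval of chromosome 10 (chr10:133678538-133740469) lay 22.8 kb before the last interval of that chromosome, towards the end of the long arm.

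Other very wide intervals stood among many neighbours. On the short arm of chromosome 6, which carries the major histone gene cluster and the major histocompatibility complex, intervals of 62.8 kb (chr6:27494057-27556899), 41.1 kb (chr6:27582923-27624032) and 49.2 kb (chr6:27627100-27676326) followed each other with no other interval between them. The gaps were 26.0 and 3.07 kb. The first had 29 other intervals within 1 Mb. A 61.5 kb interval of chromosome 8 (chr8:37589999-37651485), on the same arm as the sparse pair, also had 29 within 1 Mb and 4 within 100 kb. On chromosome 22, a 60.4 kb interval (chr22:23127802-23188228) had 27 others within 1 Mb, a 54.5 kb interval (chr22:29587636-29642141) had 57, and a 50.2 kb interval (chr22:38718222-38768462) had 55, the nearest 13 bp away. A pair on chromosome 17 of 48.4 kb (chr17:8091437-8139868) and 45.2 kb (chr17:8150805-8196028) stood 10.9 kb apart with 49 and 48 others within 1 Mb.

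Wide intervals were spread unevenly over chromosomes. They occurred on 22 of the 23 chromosomes with intervals. Chromosome 22 had the highest share, 32 of its 523 intervals (6.12%, exact 95% interval 4.22 to 8.53%), followed by chromosome 19 with 34 of 669 (5.08%, 3.54 to 7.03%), chromosome 9 with 21 of 427 (4.92%, 3.07 to 7.42%) and chromosome 12 with 32 of 703 (4.55%, 3.13 to 6.37%). These exact intervals cover counting error only. Chromosomes 2, 11 and 14 lay below the share of the whole list with their whole interval. Chromosome 2 had 8 of 677 (1.18%, 0.512 to 2.32%) and chromosome 11 had 13 of 898 (1.45%, 0.773 to 2.46%), although chromosome 11 was second only to chromosome 1 in its number of intervals. Chromosome 21 had 0 of 42, which allows a share of up to 7.14% if 3 counts are taken as the limit, and up to 8.41% by the exact interval. Chromosomes 1, 12, 19 and 22 together held 122 of the 305 (40%) and 27.3% of all intervals. Across the 23 chromosomes the share went with the number of intervals per Mb (Spearman's rho 0.58), a description over points that come from a single list.

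**Figure D2:**
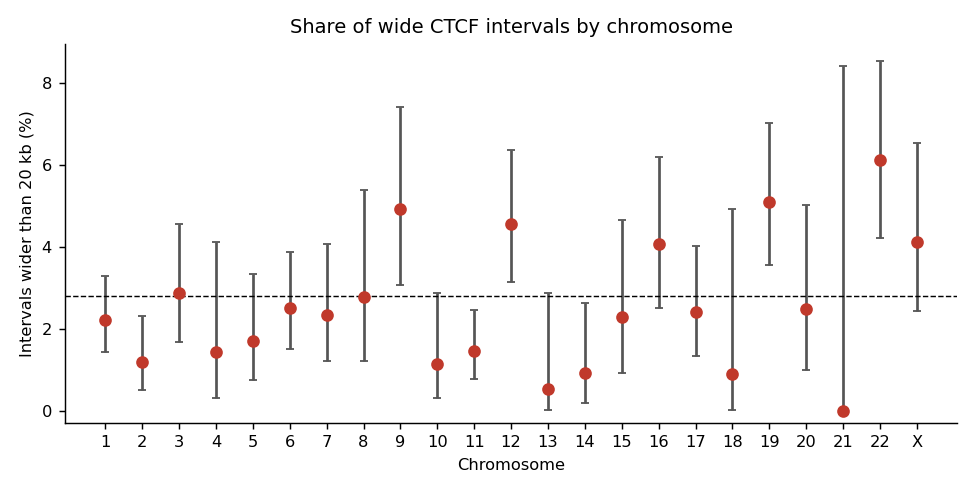
Share of each chromosome's intervals that were wider than 20 kb, in percent, with exact 95% intervals for counting error as bars and the share over the whole list (2.8%) as a dashed line. Chromosomes 9, 12, 19 and 22 lie above the line with their whole bar, and chromosomes 2, 11 and 14 lie below it.

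On chromosome 9 the wide intervals sat almost wholly on 1 side. The widest gap between intervals there, 21.7 Mb (chr9:41085663-62802397), takes in the centromere by general knowledge, so the side before it is the short arm. That side held 20 of the 21, among 130 intervals (15.4%, exact interval 9.66 to 22.8%), and the long-arm side held 1 of 297 (0.337%, 0.00852 to 1.86%). The short-arm members measured 20.001 to 48.3 kb, with the widest at chr9:16693625-16741911 and a 46.4 kb interval at chr9:34637073-34683428. Elsewhere in the list 285 of 10782 intervals were wide (2.64%). Narrower intervals of the same arm were also broad, with a median of 7.85 kb against 3.49 kb on the long-arm side, and 36 of these 110 were over 10 kb (32.7%) against 24 of 296 (8.11%). The intervals below the threshold were thus broader on this arm too. Copy number, and whether the broad widths come from both CTCF samples, was not tested.

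By general knowledge the widest gap takes in the centromere on 13 chromosomes: 6, 7, 9, 10, 11, 12, 16, 17, 18, 19, 21, 22 and X. Apart from the short arm of chromosome 9, their shares ran from 0 to 7.69% on either side. The highest of these, chromosome 18 before its gap, rested on 1 of 13 intervals (chr18:692667-713254), and its narrower intervals were broad as well, with a median of 8.11 kb. Chromosome 12 after its gap had 29 of 576 (5.03%) and chromosome 19 before its gap 21 of 377 (5.57%), with narrower intervals at 4.82 and 3.46 kb. On the other side of chromosome 19, 13 of 292 were wide (4.45%), with narrower intervals at 4.17 kb. Chromosome 22 after its gap had 32 of 519 (6.17%), with narrower intervals at 4.58 kb. On chromosome 15, where the widest gap does not take in the centromere, 4 of the 28 intervals before it were wide (14.3%, 4.03 to 32.7%), and all 4 lay within 824.6 kb (chr15:40086651-40911210). Narrower intervals on that side were broad as well, with a median of 6.04 kb and 9 of 24 over 10 kb (37.5%).

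**Figure D3:**
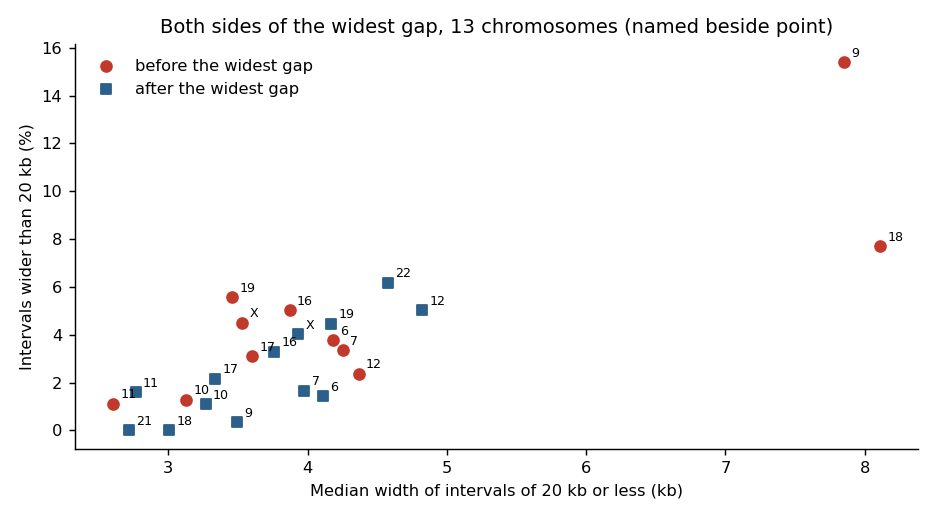
Share of intervals wider than 20 kb (percent, vertical) against the median width of the intervals of 20 kb or less (kb, horizontal) on both sides of the widest gap of 13 chromosomes, for sides with at least 10 intervals, with the chromosome printed beside each point. Chromosome 9 before its gap stands apart in its share, at 15.4% and 7.85 kb, and its other side lies at 0.337% and 3.49 kb. Chromosome 18 before its gap lies further right, at 8.11 kb.

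The share of wide intervals near the widest gap of their chromosome was no higher than over the whole list. Of the 305, 24 lay within 5 Mb of it (7.87%, exact interval 5.11 to 11.5%), the chromosome 16 interval described above among them, against 9.24% of all intervals. Where that gap does not take in the centromere, nearness to the centromere was not measured. The members on chromosomes 5 and 20 described above lay 15.7 and 14.6 Mb from the gap and were not counted as near. On the 13 chromosomes where that gap takes in the centromere, 21 of 219 wide intervals (9.59%) and 686 of 6264 narrower ones (10.95%) lay within 5 Mb. The nearest after the chromosome 16 interval were on chromosome 22 (chr22:17155486-17176437, 0.381 Mb from the gap), chromosome 10 (chr10:34682676-34704245, 0.537 Mb) and chromosome 11 (chr11:47538597-47561224, 0.556 Mb). Chromosome 22 had 6 of its 32 wide intervals within 5 Mb of its gap, beside 95 of its 523 intervals of any width. Chromosomes 16, 17 and 19 had 4 each, of 20, 14 and 34 wide intervals. Beside these stood 86 of 493, 92 of 579 and 117 of 669 intervals of any width. The start of the long arm of chromosome 22 is known for low-copy repeats, which were not analysed here. Towards the other landmark, 45 wide intervals (14.8%) lay within 5 Mb of the first or last interval of their chromosome, against 10.9% of all intervals. For narrower intervals with the chromosome makeup of the wide ones the share was 11.8%.

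Over the whole list, wide intervals had nearer neighbours than narrower ones at the median, measured from edge to edge so that their own width does not enter. The median gap to the nearest other interval was 10.7 kb for wide intervals and 16.02 kb for narrower ones. Given the makeup of the wide intervals by chromosome, the narrower ones had a median of 13.1 kb. The 305 next widest intervals, of 15258 to 19993 bp, had a median of 17.1 kb. The difference lay in the middle of the range and not at the shortest gaps. Another interval lay within 1 kb of 49 wide intervals (16.1%) against 18.9% of all intervals, within 10 kb of 144 (47.2%) against 43.3%, and within 100 kb of 266 (87.2%, exact interval 82.9 to 90.7%) against 80.1%. For narrower intervals with the chromosome makeup of the wide ones, the 3 shares were 19.8, 46.0 and 82.8%. Part of the difference within 10 and 100 kb thus went with the chromosomes. The smallest gap of a wide interval was 4 bp. A neighbour at 0 bp was rare in the whole list, with 78 of 10607 narrower intervals (0.735%) and 0 of the 305.

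**Figure D4:**
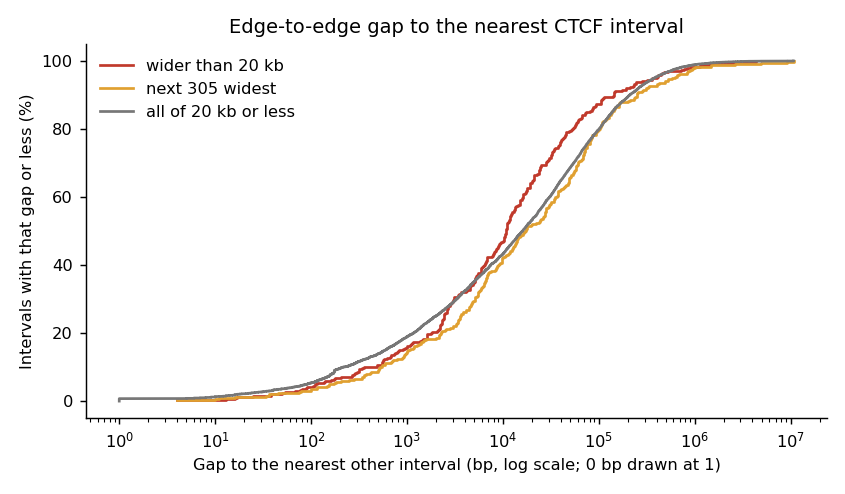
Share of intervals (percent) whose gap to the nearest other interval is at most the value on the horizontal axis (bp, log scale), for wide, next widest and all narrower intervals. The red curve of the wide intervals lies above the others between 10 and 100 kb, reaching 87.2% at 100 kb.

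Within 100 kb of their edges, wide intervals had 4.09 other intervals on average and a median of 4. Narrower intervals had 2.89 and a median of 2, or 3.25 with the chromosome makeup of the wide ones, and the next widest had 3.09. At least 5 others were present for 116 wide intervals (38.0%) against 22.9% of all intervals and 27.5% of the next widest. For narrower intervals with the chromosome makeup of the wide ones the share was 27.8%. Among the 17 chromosomes with at least 7 wide intervals, the median number within 100 kb was higher for wide than for narrower intervals on 12, equal on 4 and lower on 1, chromosome 9. The difference in that number was largest on chromosome 12, with medians of 8 and 3. The median gap was lower for wide intervals on 12 of the 17 chromosomes, among them chromosome 2 (5.72 against 30.9 kb), chromosome 16 (2.62 against 11.1 kb) and chromosome 12 (4.84 against 10.8 kb). It was higher on 5, namely chromosomes 6, 9, 19, 20 and 22. Chromosomes 19 and 22, with 66 of the 305, had 4.62 against 4.14 kb and 10.4 against 7.22 kb, and chromosome 9 had 66.2 against 24.05 kb. The shorter gaps over the whole list were thus not shared by all chromosomes.

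Over the whole list, crowding did not grow steadily with width. Intervals of up to 1 kb had 3.98 others within 100 kb on average, those over 8 and up to 12 kb had 2.73, those over 16 and up to 20 kb had 3.15, those over 20 and up to 30 kb had 3.97, and the 85 over 30 kb had 4.41. By these averages, which were not weighted by chromosome, intervals of up to 1 kb and those over 20 kb were more crowded than those of middle width. This did not hold for each of the widest. Of the 14 over 50 and up to 100 kb, 4 had no other within 100 kb, though their median was 4. Of the 2 over 100 kb, 1 had none. Over the whole list, 19.9% had none.

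Other CTCF intervals covered 15.1% of the bases within 100 kb of the edges of wide intervals, 10.4% around the next widest and 9.64% around narrower intervals with the same chromosome makeup. At 400 to 500 kb the values were 7.54, 5.66 and 6.33%. Part of this cover came from other wide intervals. Counting only neighbours of 20 kb or less, the cover within 100 kb was 10.6% around wide intervals and 7.80% around narrower ones with the same makeup.

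**Figure D5:**
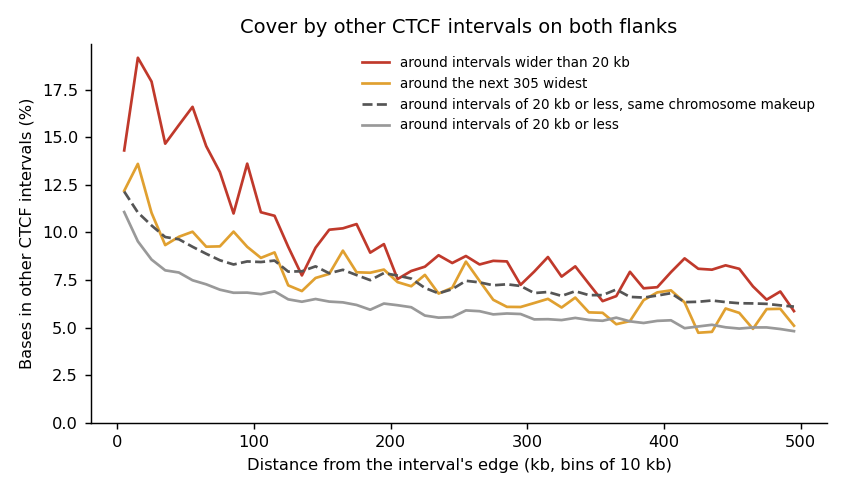
Share of bases (percent) that lie in other CTCF intervals, by distance from an interval's edge (kb, bins of 10 kb, both flanks together). Cover around wide intervals averages 15.1% over the first 100 kb against 9.64% around narrower intervals of the same chromosome makeup.

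Wide intervals also stood near each other. The nearest interval was itself wide for 33 of 305 (10.8%, exact interval 7.57 to 14.9%), against 2.86% of all intervals, 3.37% of narrower ones with the same chromosome makeup and 5.57% of the next widest. The median distance from 1 wide interval to the next on its chromosome was 1.63 Mb, with quartiles of 389.9 kb and 6.45 Mb. The same distance among the next widest was 4.07 Mb. Of 283 such distances 113 were under 1 Mb and 45 under 100 kb, against 72 and 25 of 282 among the next widest. In 27 cases 2 wide intervals followed each other with no other interval between them, against 14 among the next widest. Neither these counts nor the distances were weighted by chromosome. Without chromosome 19 the median distance among wide intervals was 2.02 Mb. Some pairs of wide intervals were far apart, with 5913 kb on chromosome 3, 5021 kb on chromosome 9 and 1841 kb on chromosome 11. The closest such pair, on chromosome 12, was separated by 319 bp (chr12:121660418-121702766 and chr12:121703086-121723649), and another there by 553 bp (chr12:120222802-120251470 and chr12:120252024-120273405). A pair on chromosome 19 was 1.60 kb apart (chr19:462168-491230 and chr19:492832-516623).

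Joining wide intervals at most 1 Mb apart gave 55 groups of 2 or more, which held 168 of the 305 (55.1%), and left 137 on their own. The same joining was not done for the next widest or other narrower intervals, so this share has no matching value. The largest group had 7 wide and 32 narrower intervals on chromosome 22 (chr22:41525339-43289018). A second group on that chromosome, towards its last interval, had 5 wide and 9 narrower intervals in 520.5 kb (chr22:50225908-50746387). Groups of 5 also lay on chromosome X (chrX:153634429-154536257), with 22 narrower intervals, on chromosome 6 (chr6:26311683-27676326), with 18, and on chromosome 9 (chr9:20348740-22012105), with 7. The long arm of chromosome 12 had 3 groups of 4 between 116.1 and 122.4 Mb, the densest of them in 251.5 kb (chr12:120222802-120474291). A further group of 4 there lay at chr12:54006622-54384487. On chromosome 15 the group of 4 had only 2 narrower intervals among its members. Groups thus differed in makeup, from rows of mostly wide intervals on chromosome 15 and at chr9:4738692-5611822, with 3 wide and 1 narrower, to wide intervals scattered among many narrower ones on chromosomes 16, 19 and 22.

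A smaller set stood alone. For 39 wide intervals (12.8%) no other interval lay within 100 kb, against 19.9% of all intervals. With the chromosome makeup of the wide ones, 82.8% of narrower intervals had another within 100 kb, against 87.2% of wide ones. Chromosome 9 held 8 of the lone wide intervals, among its 21 wide ones, and chromosome 3 held 6, among its 17. Thus 14 of the 39 were on these 2 chromosomes. Lone narrower intervals were not counted by chromosome, so these counts have no matching share. The lone wide intervals differed little in width from the rest. Their median width was 23.9 kb, close to the 25.3 kb of the other wide intervals. No interval at all lay within 1 Mb of 5 (1.64%), a share near the 1.08% of narrower intervals: those on chromosomes 5 and 20 described above, chr9:12686732-12725191 at 38.5 kb, chr14:28750918-28774780 at 23.9 kb and chr4:26322069-26342505 at 20.4 kb. The last had its nearest interval 4.37 Mb away, the farthest of all 305.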

How the data were processed

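Nanopore-DamID was measured in HEK293T cells. The values used were the start and end of each interval in 1 list that the authors deposited, with no count, score or p-value, so depth and its precision are unknown. Of the tools, bedtools, deepTools, SAMtools and minimap2 are named in the submitters' processing notes, with hg38 as the human build but no role for any of them. The sources used here give neither the caller nor its thresholds. Mouse lists were not used.

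Intervals were sorted, and starts are printed counted from 1. Gaps run from edge to edge. Narrower intervals were also weighted to the members' chromosomes. The 305 next widest intervals, groups within 1 Mb and the sides of the widest gaps were chosen after the data were seen. Members and lists were chosen with earlier results of these data known. Planned gene lists, gene names (genes overlapping the 10 widest members), sequence measures and segmental repeats were not analysed, as no human annotation or sequence was used. Centromere placement rests on general knowledge. No test was run: 1 list has no replicates. Shares carry exact Clopper-Pearson 95% intervals for counting error. The methods were tested on simulated placements, where 20 of 20 runs returned the planted gaps and neighbours. Alternatives changed the threshold, windows, chromosomes, distances and merging. Work was done in Python 3.11.15 with scipy 1.17.1, pandas 2.3.3, matplotlib 3.10.9 and numpy 2.4.6.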

Additional observations from a re-analysis of the deposited data

How the results depend on the processing

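With a threshold of over 15 kb there were 634 intervals, a median distance to the next of 1.04 Mb and 25.7% of interval bases. With over 30 kb the values were 85, 2.91 Mb and 9.03%. Merging intervals under 1 kb apart first gave 364 intervals over 20 kb in place of 305. It moved the median gap to 13.3 kb and the share of bases to 19.9%. That share, taken of the interval bases left, was 16.7% without chromosome 19 and 14.0% without the widest interval. The share with a neighbour was 79.3% within 50 kb and 92.1% within 200 kb, the median gap 30.3 kb from midpoint to midpoint, and the share within 2 Mb of the widest gap 2.95%. These alternatives were computed for the wide intervals only, so the gaps of 13.3 and 30.3 kb have no matching value for narrower ones. Limiting the list to chromosomes 1 to 22 and X could change nothing, as it holds no others. The other alternatives run, without the short arm of chromosome 9 among them, stayed within the counting interval or within 1.5 times the count. The chromosome 9 arm, the widest interval and the chromosomes whose gap takes in the centromere were chosen after seeing the data. Without chromosome 19 no count of members was computed. No paired analysis was possible because the list holds 1 set of coordinates with no value per sample. Depth is unknown, so its limits cannot be given.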

Other observations

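Windows of 10 Mb with at least 15 intervals gave a finer view of where wide intervals were frequent. Of 223 such windows, 107 held a wide interval. The highest share was on chromosome 9 from 20 to 30 Mb, with 7 of 20 intervals (35.0%) and a median of 7.81 kb for the narrower ones. Chromosome 15 from 40 to 50 Mb followed with 4 of 18 (22.2%), and chromosome 22 from 50 Mb to its last interval with 5 of 23 (21.7%) and a median of 7.43 kb. Chromosome 9 from 10 to 20 Mb had 5 of 25 and a median of 8.61 kb, the highest median among the 223 windows, whose own median was 4.01 kb. The windows with the highest numbers of wide intervals were others, with 11 of 180 on chromosome 22 from 20 to 30 Mb and 11 of 194 on chromosome 19 from 0 to 10 Mb. Across the windows the share of wide intervals had a Spearman's rho of 0.26 with the median width of the narrower intervals and 0.40 with the number of intervals, as a description of windows that share 1 list. At a constant rate, a window with few intervals more often holds no wide one. The rho of 0.40 thus cannot say whether windows with many intervals had a higher rate.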
